A study of Arabidopsis thaliana with 2 samples.

Results

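ICL, HPR and PORB are 3 of the 3602 Arabidopsis thaliana genes that had a probe set assigned to a single gene on the array. They were taken as the genes that follow a seedling from living on its stored oil to living on light. Each had 1 such probe set, so 3 of 3794 single-gene probe sets are described, all of them measured as defined below. The genes were chosen with their signals on these arrays known, so their differences are given as a description and carry no test. RNA from whole seedlings of sks (snakeskin), an insertion mutant in the Col-0 ecotype, was hybridised to 1 Affymetrix array, and RNA from Col-0 seedlings without the modification, the wild type, to another. Both were at growth stage 1.0, which in the common staging scale of Arabidopsis stands for fully opened cotyledons. Both had been kept at 22 °C with 24 hours of light a day on Murashige-Skoog medium with 1% agar and 1% sucrose, so neither group was dark-grown or sugar-free. The labels do not say which gene the insertion disrupts, how many seedlings were pooled, or whether sks was 1 line.

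An oilseed such as Arabidopsis feeds its seedling from oil until the cotyledons turn green. The fatty acids are broken down by beta-oxidation in peroxisomes called glyoxysomes, and the glyoxylate cycle there, in which ICL (isocitrate lyase) is a defining enzyme, passes their carbon on towards sugar. As the cotyledons green, the same organelles take on the enzymes of leaf peroxisomes, which serve photorespiration, the salvage of the carbon that Rubisco loses when it binds oxygen. HPR (hydroxypyruvate reductase) reduces hydroxypyruvate to glycerate in that pathway. PORB (protochlorophyllide oxidoreductase B) is one of the enzymes that use light to turn protochlorophyllide into chlorophyllide, a late step of chlorophyll synthesis. Both PORB and PORC are known to be expressed in seedlings in the light, and PORA is known from dark-grown seedlings. Neither array held dark-grown seedlings, so PORB expression in the dark could not be read.

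ICL and PORB had higher signals in sks, and HPR had a lower one. ICL was 8.75-fold higher, PORB 2.22-fold higher and HPR 5.24-fold lower. The ratio of the ICL to the HPR signal was 45.9 times as large on the sks array as on the wild-type array. With 1 array per genotype no SD, standard error or p-value exists, and each value compares these RNA samples rather than the genotypes. In RNA from whole seedlings, fewer cells of a type and less RNA per cell cannot be told apart.

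ICL (AT3G21720, probe set 17412_at) had a linear signal intensity of 308.7 in sks and 35.3 in the wild type. The log2 difference, sks minus wild type, was 3.13. The wild-type signal was low but was 3.18 times the highest signal of 23 blank probe sets. These blanks are directed against mouse, yeast and Bacillus sequences. The part of background in the wild-type ICL signal was not tested. The size of the fold depended on how low signals were treated. With an offset added to every signal, the log2 difference of ICL was 2.66. Among the 8247 non-control probe sets of its array, the ICL probe set stood at percentile 60.9 of signal in the wild type and at 90.0 in sks.

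HPR (AT1G68010, probe set 15182_at) read 425.6 in sks against 2232.1 in the wild type, a log2 difference of -2.39. Its place among the signals of its array was percentile 98.6 in the wild type and 92.2 in sks. The HPR signal in sks was thus still 25.3 times the highest blank signal of that array. The transcript of this photorespiratory enzyme was less abundant in sks but well above the blanks.

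PORB (AT4G27440, probe set 14634_s_at) read 346.7 in sks and 156.3 in the wild type, a log2 difference of 1.15. This difference was the smallest of the 3. The suffix _s_at marks a probe set that can share probes with related transcripts, and no probe set of PORA or PORC alone was named here. Their part in the PORB signal was not tested. The ICL and HPR probe sets carry the plain _at suffix.

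**Figure D1:**
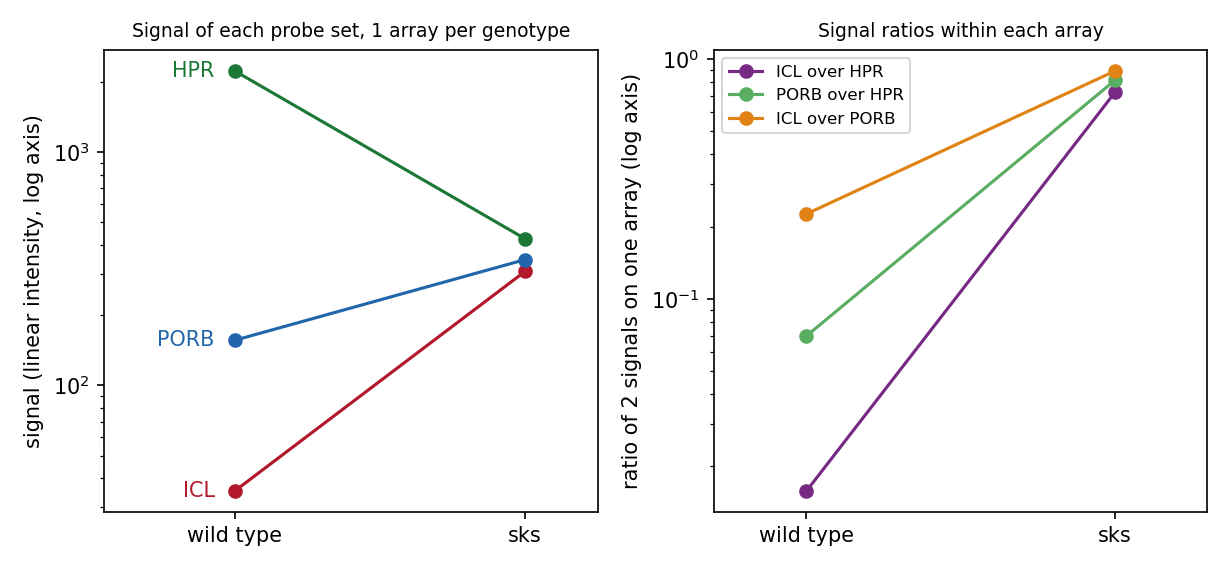
Left, linear signal intensity of the ICL, HPR and PORB probe sets on the wild-type and the sks array, on a log axis, with 1 point per array and lines joining the points of one probe set. Right, ratios of these signals within each array, also on a log axis. ICL is higher in sks (308.7 against 35.3) and HPR lower (425.6 against 2232.1), and all 3 ratios are higher on the sks array.

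A ratio of 2 signals from one array is unaffected by any factor common to that array, such as its overall scaling. Its absolute size has no unit, because probe sets differ in how strongly they bind, and only its change between arrays is read. The ratio of ICL to HPR, taken as the measure of the change from glyoxysome to leaf peroxisome, was 0.0158 in the wild type and 0.725 in sks. On the log2 scale the ratio was 5.52 units higher in sks, which is the log2 difference of ICL, 3.13, minus that of HPR, -2.39. The ratio of PORB to HPR was 0.0700 in the wild type and 0.815 in sks, 11.6 times as large. The ratio of ICL to PORB was 0.226 and 0.890, 3.94 times as large in sks. ICL therefore differed more than PORB even though both were higher.

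As a background for these values, the brighter 4124 probe sets, with a mean log2 signal at or above the median (corresponding to a signal of 19.4), are called measured. In sks, signals at least 2-fold above the wild type were found for 8.12% of them, and signals at least 2-fold below it for 12.4%. ICL and PORB belong to the first group and HPR to the second. Nothing is read from this, because the genes were chosen on the same contrast. ICL had the 27th highest log2 difference of the 4124 and the 13th highest among the 1716 measured single-gene probe sets. HPR had the 41st lowest of the 4124 and the 15th lowest of the 1716. PORB was 242nd from the top of the 4124, so many probe sets differed more than it did. The median log2 difference of measured probe sets was -0.08, with an SD across probe sets of 0.92.

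**Figure D2:**
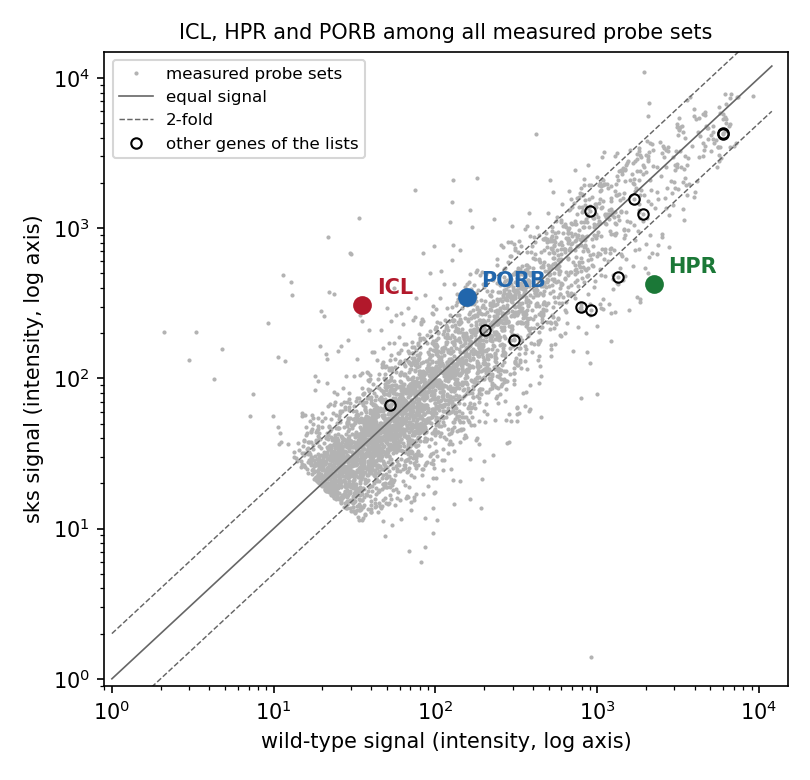
Signal on the sks array against signal on the wild-type array for the 4124 measured probe sets (grey), both on log axes, with lines for equal signal and for 2-fold. ICL lies far above and HPR below the 2-fold lines, PORB lies just above the upper one at 346.7 against 156.3, and open circles mark the other measured genes of the pathway lists.

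The other genes of the same pathways were read from 10 lists with 195 entries, of which 14 had a single-gene probe set and 13 were measured. The lists are therefore mostly unread, and the level of the genes without a probe set named here is unknown. The lists were also chosen with earlier results of these data known. ICL was the measured member of the 12-gene list for the glyoxylate cycle and gluconeogenesis, so no second enzyme of the cycle, such as malate synthase, was available beside it. Of 23 genes of beta-oxidation and oil breakdown, AIM1 was measured. AIM1 is a multifunctional protein that carries out middle steps of peroxisomal beta-oxidation. Its brighter probe set read 1309.3 in sks against 898.1, and its dimmer one 66.8 against 52.3. Both were within 2-fold, with log2 differences of 0.54 and 0.35, and both carry a shared-probe suffix. With scaling to the hybridisation spike controls they were 0.10 and -0.09, so no direction is given for AIM1. Nothing is read from the gap in size between ICL and AIM1, because ICL was chosen on this contrast.

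Of 32 photorespiration genes, 2 were measured. One is HPR, which was chosen on this contrast, so the list adds 1 gene to it. That gene, AT1G11860, was at least 2-fold lower in sks, as were 12.4% of all measured probe sets. It was entered in the list as the T protein of glycine decarboxylase, the mitochondrial complex that splits glycine. That name is not in the annotation or gene table used here. AT1G11860 read 286.6 in sks and 910.9 in the wild type, 3.18-fold lower. The log2 difference of HPR was 0.72 units lower than that of AT1G11860. Nothing is read from this gap, because HPR was chosen on this contrast. The list that holds AT1G11860 was also chosen with earlier results of these data known, so AT1G11860 is no independent support for HPR.

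Of 32 genes of chlorophyll and tetrapyrrole synthesis, 4 were measured. PORB, which was chosen on this contrast, was the 1 at least 2-fold higher, as were 8.12% of all measured probe sets. The other 3 lay within 2-fold. Following the order of the pathway, GSA1, a glutamate-1-semialdehyde aminotransferase that makes the first common precursor, read 209.0 in sks and 201.2 in the wild type. HEME2, a uroporphyrinogen decarboxylase of the middle of the pathway, read 181.2 and 307.1. AT1G74470, geranylgeranyl reductase, which makes the phytyl tail of chlorophyll, read 1250.8 and 1929.0. HEME2 and AT1G74470 thus stood below the wild type, as did 54.4% of all measured probe sets. The ratio of PORB to GSA1 was 2.14 times as large in sks as in the wild type, that of PORB to HEME2 3.76 times and that of PORB to AT1G74470 3.42 times. These ratios carry the choice of PORB on this contrast, so nothing is read from them about the pathway. The median log2 difference of the 4 genes, PORB included, was -0.29, but 0.05 without the filter on low signals and -0.63 without PORB, the probe set with a shared-probe suffix, so no direction is given for the list. HEMA2, a glutamyl-tRNA reductase gene, was below the signal limit at 18.4 and 13.7.

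**Figure D3:**
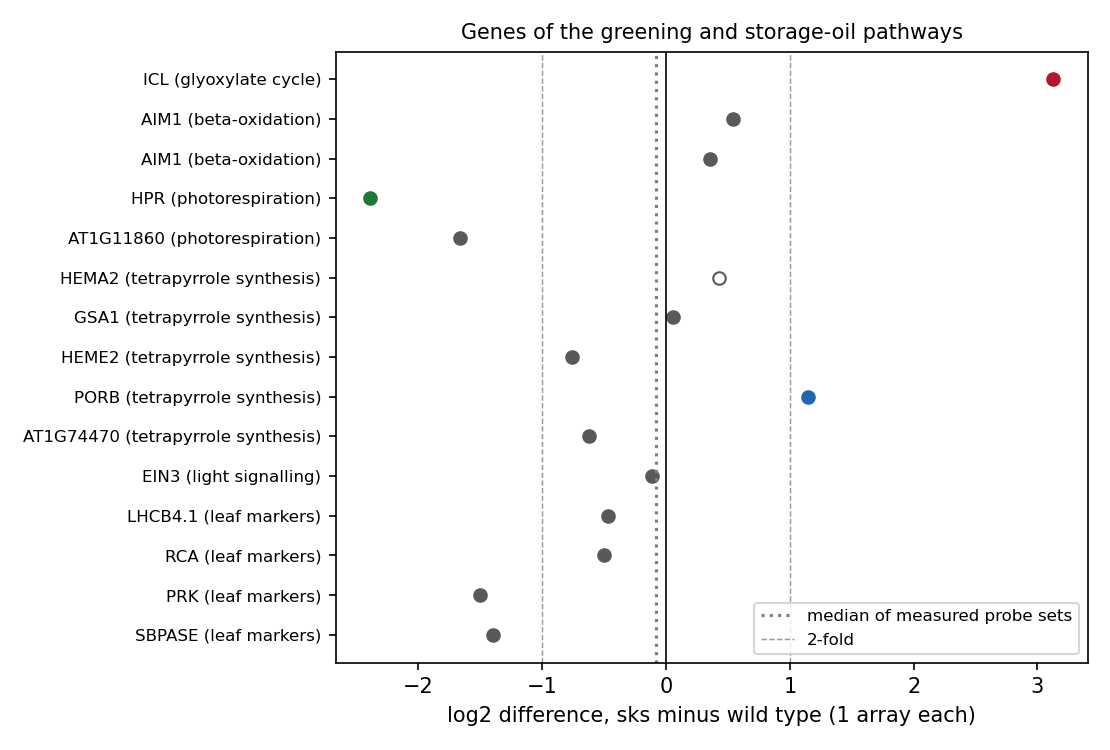
Log2 difference, sks minus wild type, of each single-gene probe set in the pathway lists, 1 array per genotype, with the list in brackets. ICL at 3.13 and PORB at 1.15 lie right of the 2-fold line, HPR at -2.39 and 3 further genes lie left of it, and the open circle is HEMA2, which was below the signal limit.

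Of 18 leaf photosynthesis markers, 4 were measured, and all 4 had lower signals in sks, as did 54.4% of all measured probe sets. Their median log2 difference was -0.95, against -0.08 over all measured probe sets. Their summed signal was 9301.9 in sks and 14052.5 in the wild type. The list was chosen with earlier results of these data known, so its median and sum are given as a description only. The Calvin cycle genes PRK (phosphoribulokinase) and SBPASE (sedoheptulose bisphosphatase) were at least 2-fold lower, against the background of 12.4%, with log2 differences of -1.51 and -1.40. LHCB4.1, an antenna protein of photosystem II, and RCA, the Rubisco activase, were within 2-fold at -0.47 and -0.50. The RCA probe set carries a shared-probe suffix, and without it the median of the other 3 was -1.40. HPR at -2.39 lay below all 4 leaf markers, but HPR was chosen on this contrast. The part of leaf content in the HPR difference was not tested. EIN3, a transcription factor of ethylene signalling and the measured 1 of 22 light signalling and greening regulators, read 1555.3 and 1687.4. No gene of the lists for peroxisome biogenesis, seed storage and oil bodies, root or epidermis had a probe set that could be read. Seed reserves, which would bear on how far oil use had gone, could therefore not be read.

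The genes whose pattern was most like each of the 3 were found, among single-gene probe sets, by the distance between log2 signals on the 2 arrays, which is a likeness over 2 values. Nearest to ICL were ATPMEPCRB, a pectin methylesterase gene, at a distance of 0.22, AT4G36430 at 0.36 and AT2G45710 at 0.52. Their signals were 265.7, 240.8 and 292.5 in sks and 34.0, 35.4 and 50.5 in the wild type. Each was less different between the arrays than ICL, at 7.81-fold, 6.80-fold and 5.79-fold higher in sks. Nearest to HPR were AT2G05540 at 0.43, DI19 (drought-induced 19) at 0.62 and the Calvin cycle gene PRK at 0.75. AT2G05540 read 340.2 in sks against 1840.3, 5.41-fold lower and so close to HPR in size. DI19 was 3.08-fold lower and PRK 2.84-fold lower. Nearest to PORB were AT4G11190 at 0.07, AT2G19680 at 0.16 and AT4G39300 at 0.18, which were 2.08-fold, 1.99-fold and 1.87-fold higher in sks. Unnamed probe sets and those of several genes were not searched.

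Array measures moved in part with the genotype. All 9 hybridisation spike probe sets were brighter in sks, with a median ratio of 1.36. For GAPDH the probe set at the 3′ end read 4.14 times that at the 5′ end in sks and 2.94 times in the wild type, and for ubiquitin 4.65 and 4.84 times. The part of RNA quality in the differences was not tested. With sks signals lowered to match the spikes, the log2 difference was 2.69 for ICL, -2.83 for HPR and 0.71 for PORB, while the median of measured probe sets moved to -0.52. PORB then no longer reached 2-fold, although its rank of 242nd was the same by construction. HEME2 and AT1G74470 were then at least 2-fold lower, at -1.20 and -1.07. So were 1092 of the 4124 measured probe sets, against 510 with the deposited scaling, because all sks signals were lowered by a common factor. The ratio of ICL to HPR differed by 5.52 log2 units with either scaling, since a common factor cancels in it.

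**Figure D4:**
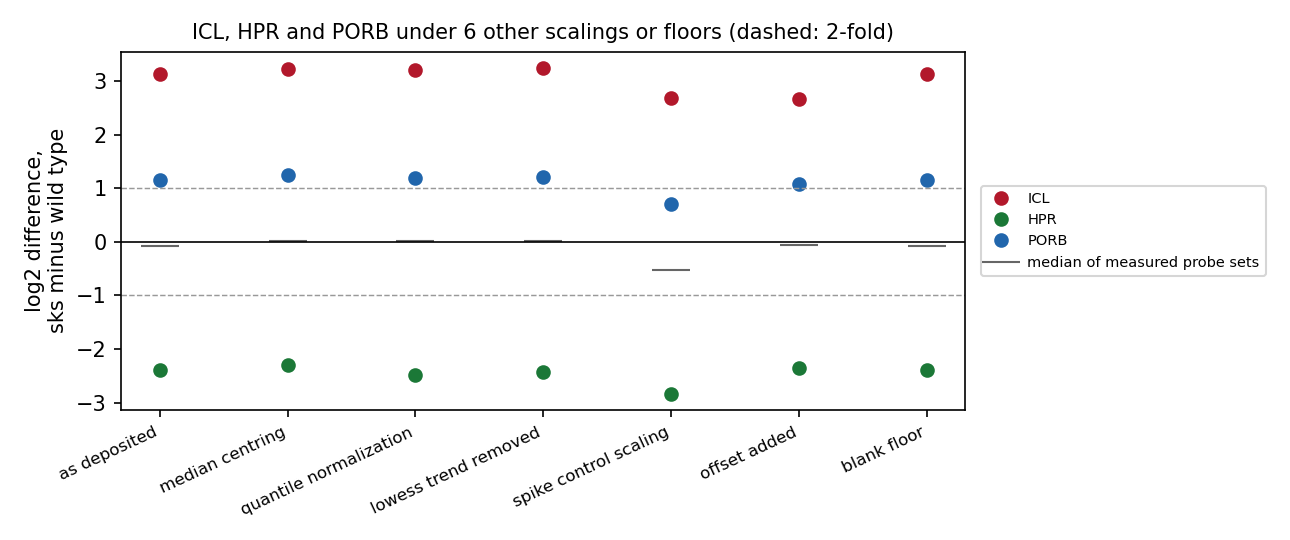
Log2 difference, sks minus wild type, of ICL, HPR and PORB with the deposited scaling and under 6 other scalings or treatments of low signals, with grey dashes for the median of measured probe sets. ICL stays between 2.66 and 3.24 and HPR between -2.83 and -2.30 in the 6 settings, and PORB is within 2-fold at 0.71 with spike control scaling.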

How the data were processed

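The authors deposited a linear signal intensity for each of 8297 probe sets on each of 2 arrays. The software that summarised the probes is not given in the sources used here. Per the labels' protocols, total RNA was amplified from an oligo-dT primer and labelled with biotin, which favours 3′ ends. The 2% trimmed mean was 100.2 on both arrays, so the intensities were used as deposited. Signals below 1 were set to 1 and log2 was taken. The 50 control probe sets were left out. Gene names came from the platform annotation, with symbols brought up to date from RefSeq (TAIR10.1) by Entrez ID, which matched 3784 of 3794 single-gene probe sets. Another 70 probe sets had several genes, and 4383 non-control probe sets were unnamed here. Lists were matched by locus, with the brightest probe set per gene.

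ICL, HPR and PORB, the pathway lists and the settings were chosen with earlier results of these data known. The text names every single-gene probe set of ICL, HPR and PORB, every list member with a single-gene probe set, and the 3 single-gene probe sets nearest to each of the 3 genes. No test was made, as each genotype had 1 array, and the number of arrays limits the precision. Alternatives were median centring, quantile normalization, a lowess trend, spike scaling, an offset of 16, a floor at the highest blank signal, other filters and other fold limits. Python 3.11.15, pandas 2.3.3 and statsmodels 0.14.6 were used. No sequences of these genes were used here.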

Additional observations from a re-analysis of the deposited data

How the results depend on the processing

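With 1 array per genotype, leaving one out was not possible. No paired analysis was possible because there was a single pair of arrays. ICL, HPR and PORB kept their directions in all 6 settings tried on them. Their log2 differences ranged from 2.66 to 3.24 for ICL, from -2.83 to -2.30 for HPR and from 0.71 to 1.24 for PORB, and that of the ICL to HPR ratio from 5.01 to 5.69. Median centring and spike scaling moved the 3 genes by a common amount, and the floor at the highest blank left their values unchanged. In these settings the ICL to HPR ratio was the same by construction. The lowest ICL and ratio values came with an offset of 16 added to every signal, and PORB passed below 2-fold with spike scaling. These shifts were smaller than 0.65, the pooled SD of log2 differences between probe sets of one gene over 80 genes, which is no measure of replicate error. Since each of the 3 genes had 1 probe set, averaging over probe sets and other pairings of ICL with HPR gave no other value. The 335 measured probe sets past 2-fold upwards and 510 downwards became 135 and 1092 with spike scaling. A limit of 1.5-fold gave 751 and 1048, and one of 3-fold 105 and 185. The absence of a filter gave 1008 and 1258 of 8247 probe sets, and a filter raised to percentile 75 left 194 and 259 of 2062. Plain _at probe sets of single genes gave 96 and 175 of 1418. With these other limits and filters, the number tested or the limit differs by construction. The tetrapyrrole median of -0.29 was 0.05 without a filter, where HEMA2 joins, and -0.63 on plain _at probe sets, where PORB drops out, so that list has no direction. The leaf marker median stayed between -1.40 and -0.85, with the lowest value on plain _at probe sets, where RCA drops out. Of the other 11 measured list probe sets, 9 kept their sign in all 6 scaling and low-signal settings; the dimmer AIM1 probe set and GSA1 passed below 0 with spike scaling, to -0.09 and -0.39.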
